A study of Mus musculus with 5 samples.

Results

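The genes that make MHC class I molecules and load them with antigen were read on 5 arrays of mouse thymocytes. They are H2-K1, H2-D1 and H2-Q1, which encode class I heavy chains, B2m, Tap1, Tap2, Tapbp and Mr1. These genes were chosen by function, though with earlier results of these data known. They are 8 of the 8251 genes that the array annotation gives a probe set of their own. All probe sets with a single member symbol were used, 15 in number. Of these, 7 carry the suffix _f_at, which marks a probe set that may read several genes of a family. All 6 such sets of H2-K1, H2-D1 and H2-Q1 may therefore include signal of other class I heavy chains. Another 3 probe sets name a member among several symbols and were not assigned to any gene. Of the 15 probe sets, 14 exceeded a floor of 130.4 signal units on at least 1 array and 10 did so on all 5. The floor is the median signal of all gene probe sets, and lower values were raised to it before ratios were taken.

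Class I molecules carry peptides from inside the cell to its surface, where CD8 T cells and natural killer cells read them. A heavy chain folds with the light chain beta 2 microglobulin (B2m). Peptides cut by the proteasome enter the endoplasmic reticulum through the TAP transporter, a dimer of Tap1 and Tap2. Tapasin (Tapbp) holds the empty class I molecule at the transporter until it binds a peptide. Mr1 encodes a class I-like heavy chain that also pairs with B2m but presents vitamin B metabolites to MAIT cells, a population that is selected on double positive thymocytes. Cortical thymocytes are known for a low surface level of classical class I molecules.

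The study profiled stages of T cell development in the thymus of male C57BL6 mice aged 5 weeks. Thymuses of 10 mice went into the sorts, and the labels do not say whether RNA of different mice was combined. By surface phenotype the populations were DN1 (CD44hi CD25-), DN2 (CD44hi CD25+), DN3 (CD44lo CD25+) and pre-double positive, or preDP (CD44lo CD25-). All 4 were lin- CD24+ and came from thymocytes enriched for blasts. The double positive (DP) population was gated as CD4+8+ from total thymocytes, so developmental stage and cell source cannot be told apart for DP. Each population had 1 array, so no test was possible and every fold compares a single pair of arrays. The number of arrays limits the precision. The only error available for single genes is the SD between log2 ratios of different probe sets of the same gene. It was 0.43 to 0.59 depending on the comparison. This SD covers the probes and leaves out variation between sorts and mice. The mean log2 ratio of 9 spike control probe sets also differed between arrays. Over the comparisons made here it went from -0.39 (preDP against DN3) to 0.23 (DN3 against DN2). In sorted populations, fewer cells of a type and less RNA per cell cannot be told apart.

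Thymocyte markers were read first as a check of the gates. The Cd4 signal was 5096 in DP and 132 or less elsewhere, and the Il2ra signal, which encodes CD25, was 1156 in DN2, 439 in DN3 and at most 65.8 elsewhere. The CD8 genes were less confined to DP. Cd8a read 755 (DN1), 10.7 (DN2), 73.0 (DN3), 2031 (preDP) and 20020 (DP). Cd8b1 read 342, 19.4, 319, 6242 and 28020 in the same order. The DN1 array stood apart. Genes of class II presentation had a summed signal of 149534 in DN1, against 5373 (DN2), 2897 (DN3), 2529 (preDP) and 1980.0 (DP), with 11, 10, 5, 7 and 4 of 12 genes above the floor. Myeloid markers summed to 127255 in DN1 and to 782 to 2923 elsewhere, with 12 of 14 above the floor in DN1. Dendritic cell markers summed to 47697 in DN1 and to 3119 to 4918 elsewhere, and B lineage markers to 60876 and to 5032 to 10297. In DN1 most of these sums came from Cst3 (30023.5) and Ighm (52870). Rag1 and Ptcra, which mark committed T cell precursors, were under the floor in DN1, and Ptcra was also under it in DN2. Of 15 thymocyte markers on the array, 10 were above the floor in DN1 and 10 in DN2. Antigen-presenting cells carry abundant class I RNA, and the part of these cells in the DN1 values was not tested. The range over the other 4 arrays is therefore given beside the whole range of each gene. That range still includes DN2, where Cd74 read 1425, against 174 in DN3. From DN2 to DN3, 3 of 10 measured class II genes were at least 2-fold lower and 0 higher, where 3.94% and 2.02% of all genes were. The part of antigen-presenting cells in the DN2 values was not tested either.

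**Figure D1:**
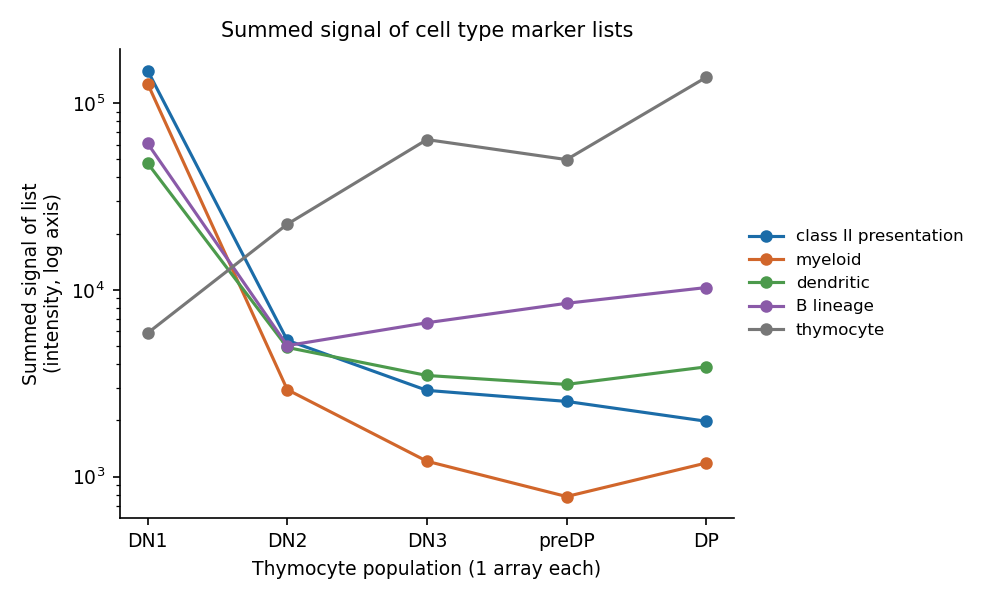
Summed signal of 5 cell type marker lists (log axis, intensity units) in each thymocyte population, 1 array each. Class II, myeloid, dendritic and B lineage lists were highest in DN1, and the thymocyte list was lowest there (5872) and highest in DP (137575).

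The promoters of the members are shown because the heavy chain genes, B2m and the Tap1 locus differed in their stage profiles, and because a shared set of control elements upstream of class I genes is textbook knowledge. The RefSeq table of build GRCm38.p6 held promoters for 6 of the 8 genes: H2-K1, H2-D1, B2m, Tap1, Tapbp and Mr1. Each window is the 250 bases before the annotated start site, written 5′ to 3′ on the strand of the gene. Capitals mark matches on either strand to 5 letter patterns. These are both forms of the interferon-stimulated response element, GAAANNGAA and GAANNGAAA, the NF-kappaB-like pattern GGGNNTTNC of enhancer A, the core TGACG of the X2 box, and the CCAAT box. The H2-K1 window is chr17:34000334-34000583 on the minus strand, 1 of 2 overlapping entries. The H2-D1 window is chr17:35262844-35263093 on the plus strand, B2m chr2:122147437-122147686 plus, Tap1 chr17:34187306-34187555 plus, and Mr1 chr1:155146815-155147064 minus.
H2-K1: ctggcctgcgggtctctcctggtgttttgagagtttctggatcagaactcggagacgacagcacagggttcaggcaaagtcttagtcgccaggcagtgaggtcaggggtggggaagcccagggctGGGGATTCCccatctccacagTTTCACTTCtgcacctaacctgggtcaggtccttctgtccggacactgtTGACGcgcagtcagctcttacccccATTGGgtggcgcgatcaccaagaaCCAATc
H2-D1: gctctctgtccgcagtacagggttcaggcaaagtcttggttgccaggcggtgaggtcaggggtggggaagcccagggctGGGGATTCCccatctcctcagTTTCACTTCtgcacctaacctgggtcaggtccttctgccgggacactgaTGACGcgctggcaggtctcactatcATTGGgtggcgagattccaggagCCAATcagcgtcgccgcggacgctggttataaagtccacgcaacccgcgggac
B2m: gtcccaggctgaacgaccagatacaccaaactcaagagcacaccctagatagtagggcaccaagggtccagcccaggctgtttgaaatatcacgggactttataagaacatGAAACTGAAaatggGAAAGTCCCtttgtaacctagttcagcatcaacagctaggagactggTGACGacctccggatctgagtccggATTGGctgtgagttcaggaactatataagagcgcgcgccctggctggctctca
Tap1: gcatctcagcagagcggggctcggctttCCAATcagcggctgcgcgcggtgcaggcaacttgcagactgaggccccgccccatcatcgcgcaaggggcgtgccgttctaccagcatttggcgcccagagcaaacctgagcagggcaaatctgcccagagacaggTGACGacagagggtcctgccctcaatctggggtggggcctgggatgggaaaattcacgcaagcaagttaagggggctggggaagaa
Mr1: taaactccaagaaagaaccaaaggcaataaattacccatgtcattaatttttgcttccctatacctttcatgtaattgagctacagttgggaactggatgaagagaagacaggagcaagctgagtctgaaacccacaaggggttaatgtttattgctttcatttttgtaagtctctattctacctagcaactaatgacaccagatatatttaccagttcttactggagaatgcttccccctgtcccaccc
The H2-K1 and H2-D1 windows held the same patterns in the same order, with the same spacing from the NF-kappaB-like match to the first CCAAT box. Counted from the start site, the NF-kappaB-like match began at -125 in H2-K1 and at -171 in H2-D1. The interferon element match began at -104 and -150, TGACG at -55 and -101, and the first CCAAT box, on the other strand, at -30 and -76. In B2m the order of the first pair was the other way round, with the interferon element at -139, the NF-kappaB-like match at -125 and TGACG at -78. The Tap1 window held TGACG at -86 and CCAAT at -222 and no match to the other patterns, Tapbp held CCAAT alone, and Mr1 held none of the 5. Over 32851 promoter windows of the same length, GAAANNGAA was in 7.13%, GAANNGAAA in 6.31%, GGGNNTTNC in 13.0%, TGACG in 17.8% and CCAAT in 33.8%. A match describes letters only, and short patterns such as TGACG and CCAAT are common.

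H2-K1 and H2-D1, the classical class I heavy chain genes of this strain, were lower at each successive stage. The brightest H2-K1 probe set, 93120_f_at, read 23674 (DN1), 13841 (DN2), 8092 (DN3), 3897 (preDP) and 1459 (DP). All 4 steps were larger than the spread between probe sets, at 1.71-fold, 1.71-fold, 2.08-fold and 2.67-fold. DN1 was 16.2-fold above DP, and DN2 was 9.48-fold above DP. The next H2-K1 probe set, 97125_f_at, gave the same order, with 3084, 1459, 976, 576 and 255 from DN1 to DP. The only H2-K1 set without a suffix for shared probes, 97700_at, stayed between 107 and 161 on all arrays, near the floor, and showed no such order.

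For H2-D1 the brightest probe set, 97540_f_at, read 17275.5 (DN1), 9985 (DN2), 6388 (DN3), 3326 (preDP) and 1502 (DP). The steps were 1.73-fold, 1.56-fold, 1.92-fold and 2.21-fold, again each beyond the probe set spread. DN1 was 11.5-fold above DP, and DN2 was 6.65-fold above DP. Of the other H2-D1 sets, one departed from this order. Probe set 101886_f_at read 14199, 7374, 3894, 2605 and 3302, so that it was lowest in preDP and 1.27-fold higher in DP than in preDP. Probe set 97541_f_at kept the order, with 1067, 457, 231, 139 and 43.8, of which the DP value was under the floor. Together these genes had 6 probe sets, of which 5 were highest in DN1. The DN part of the order thus held for both bright sets of each gene, whereas the DP value of H2-D1 depended on the probe set.

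**Figure D2:**
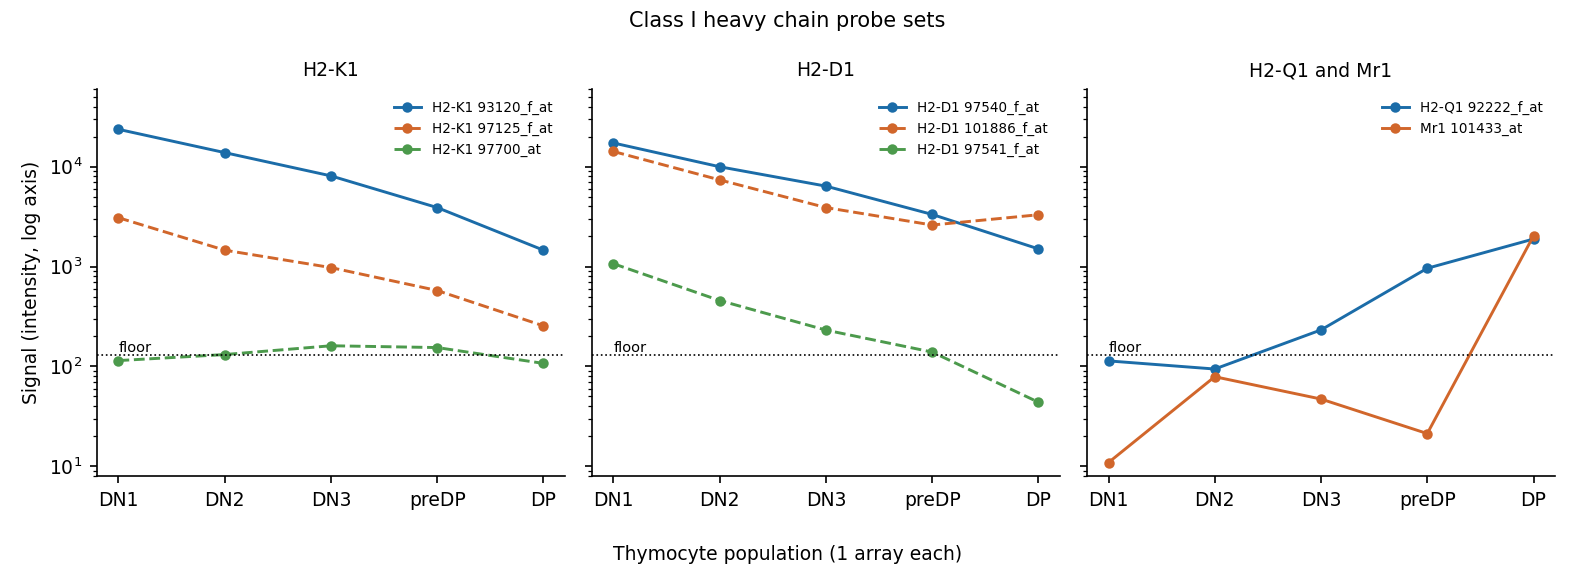
Signal (log axis, intensity units) of each probe set of H2-K1, H2-D1, H2-Q1 and Mr1 above the floor on at least 1 array, in the 5 populations with 1 array each; solid lines mark the probe set used for the gene and the dotted line the floor of 130.4. H2-K1 93120_f_at and H2-D1 97540_f_at were lower at each stage, H2-D1 101886_f_at was higher in DP than in preDP, and H2-Q1 and Mr1 were highest in DP.

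H2-Q1, a heavy chain gene of the Q region next to H2-D1, ran the opposite way. Its single probe set, 92222_f_at, read 113 (DN1), 94.1 (DN2), 232 (DN3), 961 (preDP) and 1887 (DP). The values in DN1 and DN2 were under the floor, so DN3 was at least 1.78-fold above both. The preDP value was 4.14-fold and the DP value 8.14-fold above DN3. The step from preDP to DP was 1.96-fold, just under the 2-fold size used for calls.

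The wider family was read through all probe sets that the annotation gives to class I heavy chain genes of the H2 complex, alone or with others. Of 26 such sets above the floor on at least 1 array, 20 were highest in DN1 and 3 in DP, or 17 and 6 with the arrays scaled to an equal median. Those 3 were H2-Q1, a set for H2-T23 and H2-T-ps (98472_at, 1925 in DP against 747 to 1517 elsewhere) and a set for H2-M10.1 (514 in DP against 159 to 308). Among the 16 sets with the suffix _f_at, 15 were highest in DN1 and only H2-Q1 was highest in DP; under equal median scaling these were 14 and 2. The share of all probe sets highest in DN1 or in DP was not computed. Because _f_at sets may read the same transcripts, these counts are not of separate genes. Between preDP and DP, 8 of the 16 _f_at sets were higher in DP and 7 lower. Most of these differences were within the probe set SD of 0.59, so the signs alone show no split. Examples are H2-K2 93714_f_at and H2-Q4 99378_f_at, at log2 ratios of 0.07 and -0.09. The share of all probe sets higher or lower was not computed. At least 2-fold lower were 3 of the 16, namely both H2-K1 sets and H2-D1 97540_f_at, where 11.7% of all measured genes were. For comparison, a set that names 10 genes, H2-K1 and H2-D1 among them (102161_f_at), read 7940.3, 3275, 1550.3, 1331 and 2279 and was 1.71-fold higher in DP than in preDP. H2-K2 93714_f_at read 2941 in preDP and 3079 in DP.

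B2m, the shared light chain, kept a high signal through the DN stages and was lower in preDP and DP. Its probe set 93088_at, which is not of the shared kind, read 14199.8 (DN1), 9966 (DN2), 12523 (DN3), 7042 (preDP) and 4542 (DP). DN1, DN3 and DN2 were within the probe set spread of their neighbours in rank, and preDP and DP were each below the next by slightly more than it. DP was 2.76-fold below DN3, and the whole range was 3.13-fold, or 2.76-fold without DN1, narrower than that of either classical heavy chain.

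The transporter genes had neither the order of the heavy chains nor that of B2m, and did not match each other in DN1. Tap1 103035_at read 5954 (DN1), 3844 (DN2), 2598 (DN3), 1854 (preDP) and 2708 (DP). It was lowest in preDP, and DP differed from DN3 by only 1.04-fold and from preDP by 1.46-fold, the latter within the probe set spread (log2 difference 0.55 against an SD of 0.59). DN2 and DP, and likewise DP and DN3, did not differ beyond the spread, while DN1 lay above DN2 and preDP below DN3 by more than it. The whole range was 3.21-fold, or 2.07-fold without DN1. Another Tap1 set, 162278_r_at, was under the floor on every array. Tap2 102873_at read 1647 (DN1), 3340 (DN2), 2357 (DN3), 1774 (preDP) and 3396 (DP). Tap2 was thus lowest in DN1 and preDP and highest in DN2 and DP, and the DP value was 1.91-fold above preDP, beyond the spread. DP and DN2 were within the spread of each other, as were DN3 and preDP, and preDP and DN1.

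Both TAP genes lie next to immunoproteasome genes. In the RefSeq order of protein-coding genes on chromosome 17, Psmb9, Tap1, Psmb8 and Tap2 are consecutive, and Tap1 and Psmb9 are divergent, with promoter windows that share 225 of 250 bases. Psmb9, a catalytic subunit of the immunoproteasome, read 4873 (DN1), 3502 (DN2), 2810 (DN3), 2321 (preDP) and 971 (DP). It followed Tap1 down to preDP, and then parted from it, as DP was 2.39-fold below preDP for Psmb9. The log2 ratio of DP over preDP was 1.80 higher for Tap1 than for Psmb9, against an SD of 0.59 between probe sets of a gene. Psmb8 read 11171, 10993, 13380, 10250 and 8293 from DN1 to DP, a range narrower than that of the other genes of the locus. The Tap2 ratio exceeded the Psmb8 ratio by 1.24 and the Tap1 ratio exceeded that of H2-K1 by 1.96.

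**Figure D3:**
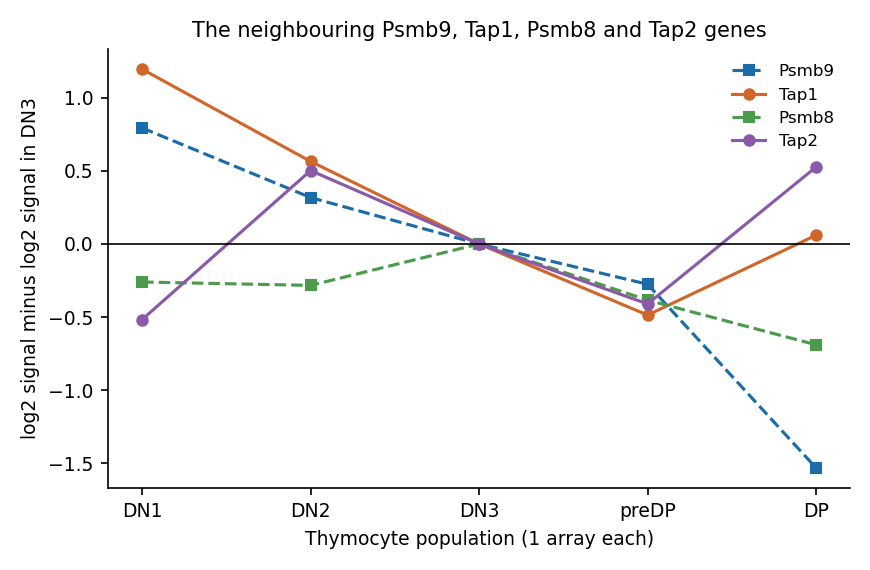
Log2 signal minus log2 signal in DN3 for the neighbouring genes Psmb9, Tap1, Psmb8 and Tap2 in the 5 populations, 1 array each. The 4 genes were lower in preDP than in DN3, and in DP Tap1 and Tap2 were above their preDP values whereas Psmb9 and Psmb8 were below theirs.

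Tapbp, which bridges class I molecules to the transporter, resembled Tap1. Its brightest set, 100154_at, read 5531 (DN1), 3151 (DN2), 2444 (DN3), 1376 (preDP) and 2016 (DP). Only the step from DN1 to DN2, 1.76-fold, exceeded the probe set spread among neighbours in rank. DN3 and preDP, which are not neighbours in rank, also differed beyond it. Here preDP was 1.78-fold lower (log2 ratio -0.83 against an SD of 0.43). The range was 4.02-fold, or 2.29-fold without DN1. The dimmer 102689_at read 481, 380.5, 306, 242 and 286 and had the same order. The set 162104_f_at read 628, 414, 392, 376 and 356 and was lowest in DP, so the position of DP relative to preDP differed between sets. For preDP against DN3, 102689_at and 162104_f_at gave log2 ratios of -0.34 and -0.06, both within the SD of 0.43.

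**Figure D4:**
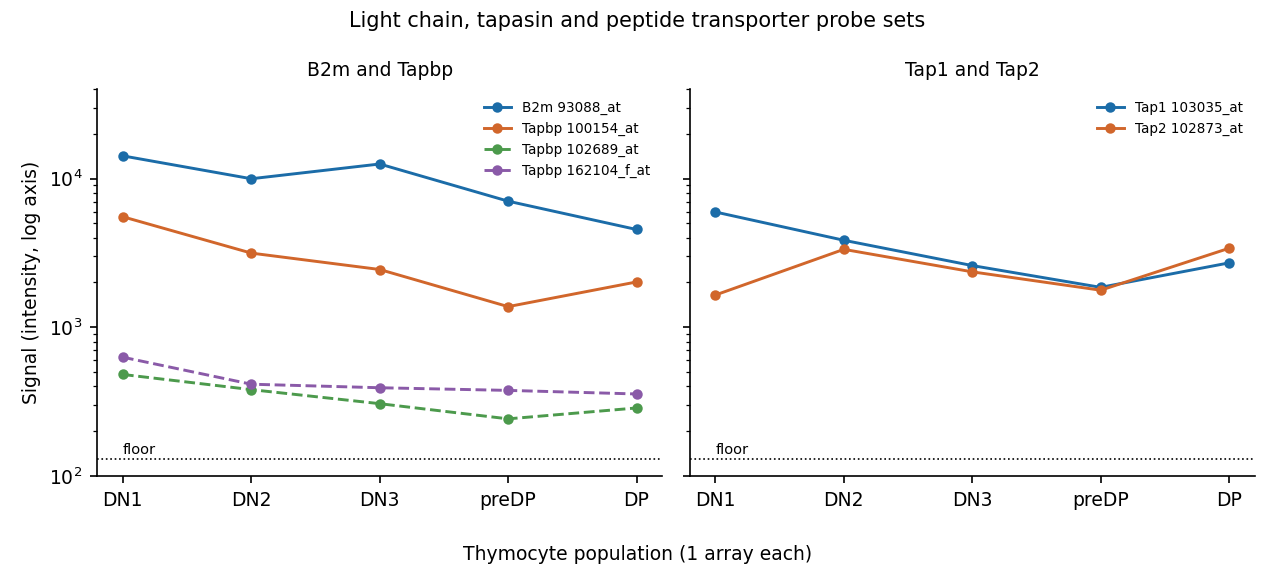
Signal (log axis, intensity units) of the probe sets of B2m and Tapbp (left) and of Tap1 and Tap2 (right) in the 5 populations, 1 array each; solid lines mark the probe set used for the gene and the dotted line the floor of 130.4. B2m was lowest in DP, while Tap1, Tap2 and Tapbp 100154_at were higher in DP than in preDP.

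Mr1 was measurable in DP alone. Probe set 101433_at read 10.9 (DN1), 78.8 (DN2), 47.1 (DN3), 21.2 (preDP) and 2029 (DP). The 4 blast-enriched populations were under the floor, and DP was at least 15.6-fold above each of them. The size of this bound is set by the floor. Since DP alone was sorted from total thymocytes, the source of the cells moved with this difference. The summed signals of B lineage and dendritic cell markers were 10297 and 3871 in DP and 8478 and 3119 in preDP. Most of each sum was 1 gene. Ighm read 8496 in DP and 6792 in preDP, and Cst3 read 2922 and 1983. In both populations only 4 of 12 B lineage and 4 of 9 dendritic markers were above the floor. The part of such cells in the Mr1 difference was not tested.

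The members were then counted at 2-fold in each comparison, beside the share of all measured genes past that size. A gene counts as measured where at least 1 of the 2 arrays was above the floor. From DN1 to DN2, 6 members were measured, of which Tap2 was 2.03-fold higher and none was 2-fold lower, while 4.75% of 5154 genes passed 2-fold upward and 8.56% downward. The median log2 ratio of the members was -0.70, against 0.13 for all genes. The Tap2 call rested on a value at the threshold and was lost with quantile normalisation, with a constant in place of the floor, and with scaling on the median of genes above the floor on all arrays. Scaling alters this comparison most. Higher genes made up 35.7% of all calls as deposited, 60.2% with the arrays set to an equal median and 21.3% with an equal median of genes above the floor on all arrays, and the median of all genes moved from 0.13 to 0.37 and -0.03.

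From DN2 to DN3, 0 of 7 measured members passed 2-fold in either direction, where 2.02% of 4894 genes were higher and 3.94% lower. The members' median was -0.50 against 0.00, with H2-Q1 and B2m higher in DN3 and the others lower. From DN3 to preDP, 1 of 7 was higher (H2-Q1) and 1 was lower (H2-K1), with 1.14% of 4825 genes higher and 2.42% lower. Here 6 of the 7 members were lower in preDP, and the members' median was -0.83 against 0.01 for all genes. H2-D1 lay just short of the threshold at 1.92-fold. The H2-K1 call was lost with the mean over its probe sets (log2 ratio -0.63), and neither call was kept without shared probe sets.

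From preDP to DP, 5 of the 8 measured members were higher and 3 lower. Mr1 was at least 2-fold higher and H2-K1 and H2-D1 were at least 2-fold lower, where 11.3% of 4857 genes were higher and 11.7% lower. With 8 members, these 2-fold counts cannot be told from the shares of all genes. H2-Q1, Tap2, Tapbp and Tap1 were 1.96-fold, 1.91-fold, 1.47-fold and 1.46-fold higher in DP, and B2m was 1.55-fold lower. The members' median was 0.55 against 0.01. For DP against DN3, H2-Q1 and Mr1 were higher and H2-K1, H2-D1 and B2m were lower, at 5.54-fold, 4.25-fold and 2.76-fold for the last 3, where 10.4% of 4910 genes were higher and 10.8% lower. With the mean over probe sets the log2 ratios of H2-K1 and H2-D1 were -1.57 and -1.05, in place of -2.47 and -2.09. Without shared probe sets B2m alone was lower and Mr1 alone higher. This comparison shares its arrays with the preceding pair of comparisons and is no separate evidence. The 2 calls lower in DP than in preDP both rest on _f_at probe sets, and neither was kept when a gene was read by its mean over probe sets (log2 ratios -0.95 and -0.30). The H2-K1 mean includes the near-floor 97700_at (-0.24), beside -1.42 and -1.18 for its _f_at sets. The H2-D1 mean includes 101886_f_at (0.34) and 97541_f_at (-0.09), the latter under the floor in DP.

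**Figure D5:**
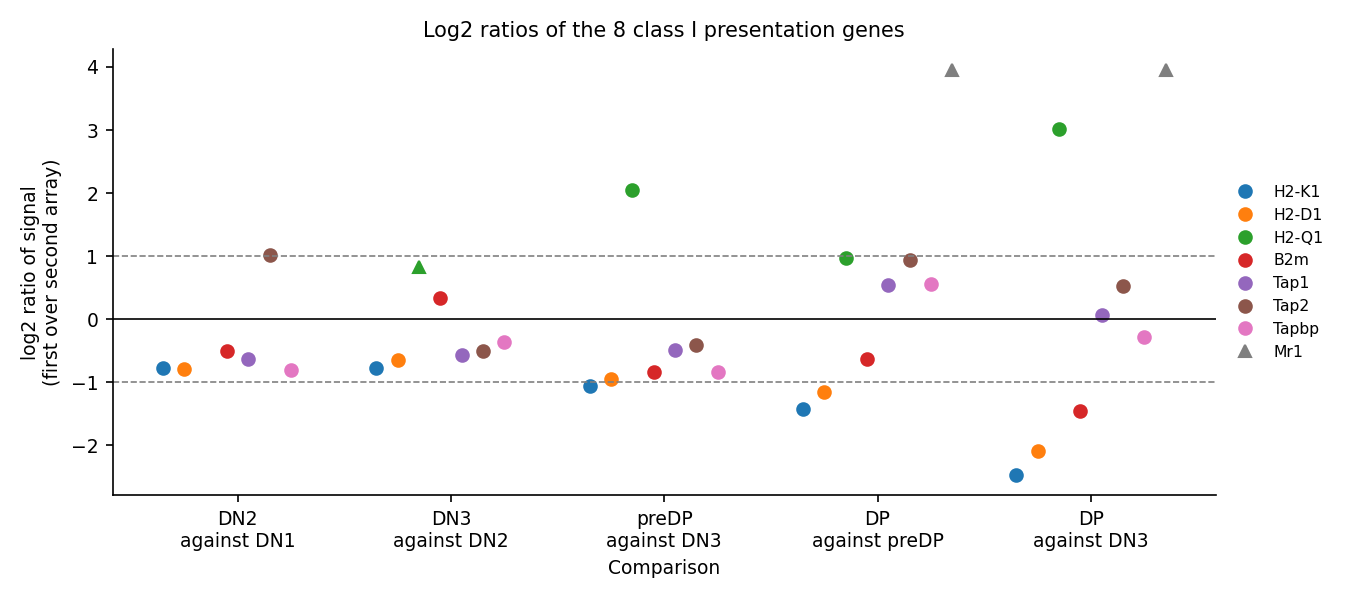
Log2 ratio of signal for the 8 genes in the 5 comparisons, first-named array over second; triangles are lower bounds because the other array was under the floor, and dashed lines mark 2-fold. H2-K1 and H2-D1 were below 0 in each comparison, and H2-Q1 was above 0 wherever it was measured.

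Other genes of the pathway were read from lists by role. Of 16 genes of peptide supply, 13 were on the array and 12 were measured between preDP and DP, of which 4 were at least 2-fold lower in DP and 0 higher (median log2 ratio -0.63), beside 11.7% lower and 11.3% higher among all genes. They were Thop1, a peptidase that destroys free peptides (699 in preDP and 108 in DP, at least 5.36-fold lower), the proteasome subunits Psmb9, at 2.39-fold, and Psmb5, at 2.06-fold, and Psmb10, the remaining immunoproteasome subunit, at 2.02-fold. The last pair lay close to the threshold, and 2 to 4 genes were lower over all alternatives tried. In the 3 earlier comparisons 0 genes of the list passed 2-fold, with 11, 12 and 12 measured. Of all genes, 4.75%, 2.02% and 1.14% were higher in these and 8.56%, 3.94% and 2.42% lower. With a floor at the 35th percentile 1 gene of the list was higher in DN2 than in DN1. For DP against DN3 the 4 lower genes were Thop1, Psmb10, Psmb9 and Psme1, a subunit of the PA28 proteasome activator (8745 in DN3 and 4249 in DP). There 10.8% of all genes were lower.

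Among other class I and class I-like heavy chain genes, 7 were measured between preDP and DP, of which 2 were at least 2-fold higher in DP and 0 lower, where 11.3% and 11.7% of all genes were. Both were CD1d genes, whose products present lipids to NKT cells and, like MR1, select them on double positive thymocytes. Cd1d1 read 428 (DN1), 763 (DN2), 571 (DN3), 283 (preDP) and 1314 (DP), 4.65-fold higher in DP than in preDP. Cd1d2 was under the floor in the other 4 populations and read 315 in DP, a call that was lost with a floor at the 65th percentile. H2-M3, which presents formylated peptides, read 958, 501, 412, 341 and 439 from DN1 to DP and stayed under 2-fold at each step.

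Of the loading chaperones, 7 were measured between preDP and DP, where 2 were lower and 0 higher, beside 11.7% and 11.3% of all genes. Pdia3, the oxidoreductase ERp57 of the loading complex, read 2520 in preDP and 1197 in DP, and Hspa5, a general chaperone of the endoplasmic reticulum, read 3027 and 1502. Both were just past 2-fold and the count was between 0 and 2 over the alternatives. Among regulators of class I genes, 13 were measured, of which 4 were higher in DP than in preDP and 1 lower, beside 11.3% and 11.7% of all genes. Over the alternatives 2 to 4 were higher and 0 to 1 lower. The higher genes were the interferon receptor chains Ifnar1 (284 against 991, 3.48-fold) and Ifngr1 (776 against 2660, 3.43-fold), Rfxank, a subunit of the RFX factor that binds the X box (339 against 729, 2.15-fold), and the receptor kinase Jak2 (267 against 554, 2.08-fold). Irf8, a factor of the interferon response that is abundant in dendritic cells, was 2.18-fold lower in DP. Irf8 also read 9429 in DN1 against 316 in DN2, and it is also on the dendritic cell list. From DN3 to preDP 0 of 12 measured regulators passed 2-fold, where 1.14% of all genes were higher and 2.42% lower. At such small shares a count of 0 says little about the list. Nlrc5 is among the 6 of 20 listed regulators that have no single-symbol probe set in the annotation used.

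Genes with the most similar profile were found among the 5442 other genes above the floor on at least 1 array, by the root mean square (RMS) difference of log2 values centred over the 5 arrays. The profile nearest to H2-K1 was that of H2-D1, at an RMS difference of 0.19, though shared probes may contribute to it. Next came Snx9, a sorting nexin of endocytosis, at 0.22, and Tmed3, a cargo receptor of the early secretory pathway, at 0.29. For H2-D1 the nearest were Snx9 at 0.18, H2-K1 at 0.19 and Tmed3 at 0.30. H2-Q1 was nearest to Cd28, a costimulatory receptor of T cells, at 0.39, then to Sh2d1a, an adaptor of SLAM receptors, at 0.45, and Rmnd5a at 0.51. B2m lay nearest to Akr7a5, at 0.13, and then to Psme1, at 0.15, and Psmb10, at 0.21, both of which supply class I peptides.

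Tap1 was nearest to Adcy7, an adenylyl cyclase, at 0.09, then to Tesk1 at 0.12 and Ctnna1 at 0.13. Tapbp had Tap1 at 0.15, after H2-D4 at 0.11 and Fxyd5 at 0.13. Tap2 was nearest to Gm11944 and Uck1, both at 0.11, and Csnk1e, at 0.13. Mr1 was nearest to Smoc1, a secreted matrix protein, at 0.07, and to Txk, a T cell kinase of the Tec family, at 0.22, and Tspyl4, at 0.33. Smoc1 read 1802 in DP and 54.3 or less elsewhere, so its resemblance to Mr1 is that of genes at the floor in every population but DP. Gm11944, Cd28, Sh2d1a, Txk, Tspyl4 and Snx9 were also under the floor on at least 1 array, so part of their likeness rests on floored values. The likeness is over 5 arrays and describes these arrays alone.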

How the data were processed

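Total RNA of 5 sorted thymocyte populations was labelled as cRNA and hybridised to Affymetrix arrays, 1 per population, per the labels' protocols. The authors deposited linear signal intensities per probe set. The submitters' processing notes name MAS5 and version 1.0 of Affymetrix Expression Console. Settings and detection calls: not given in the sources used here. With 2% trimmed at each end, every array had a mean of 500.3 to 500.4, which hides any difference in total mRNA between populations.

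Of 12488 probe sets, 10833 had 1 gene symbol in the platform annotation, 396 several and 1193 none, and 66 were controls. Of the 10833, 10817 were matched by gene identifier to the RefSeq table of GRCm38.p6, which altered 0 symbols. Sets with several symbols or none were left out, and array values carry no genome build. A gene was read by the probe set with the highest mean log2 signal after flooring at 130.4 (the 50th percentile). A fold against a value under the floor is a lower bound, and levels are not compared between probe sets.

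Ratios were called at 2-fold with Python 3.11.15, pandas 2.3.3, numpy 2.4.6 and scipy 1.17.1, and figures were drawn with matplotlib 3.10.9. No p-value was computed. The counting step was tested on simulated data. Named are all 8 members, up to 4 genes per list at least 2-fold apart, and the 3 nearest profiles. The other values in the text were chosen after they were seen. The members, lists, floor and alternatives were chosen with earlier results of these data known. Alternatives were 7 planned and 2 added after seeing the data.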

Additional observations from a re-analysis of the deposited data

How the results depend on the processing

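No paired analysis was possible because each population had 1 array, so no array could be left out as a replicate either. Over 9 alternatives, 308 single-gene log2 ratios were recomputed, of which 293 stayed within the probe set SD, 15 moved further and 2 turned sign. Many could not move. Shifting the floor leaves a ratio as it was where the same probe set is above the floor on both arrays. The count of stable ratios is therefore no measure of robustness. Both changes of sign were for H2-K1 read by its near-floor probe set 97700_at, to 0.01 (DN2 against DN1) and to 0.29 (DN3 against DN2). The members higher in DN2 than in DN1 were 0 with quantile normalisation, with a constant added in place of the floor and with scaling on the median of genes above the floor on all arrays, because Tap2 fell short of 2-fold. Those higher in DP than in preDP were 3 with an equal median of all arrays, when H2-Q1 and Tap2 passed 2-fold, and those higher in DN3 than in DN2 were 1 with a floor at the 35th percentile. With the mean over probe sets, 0 members were lower in preDP than in DN3 and 0 lower in DP than in preDP. Without shared probe sets, which leaves out the H2-D1 and H2-Q1 sets and the bright H2-K1 sets, preDP against DN3 had 0 members lower and 0 higher, DP against preDP had 0 lower, and DP against DN3 had 1 lower and 1 higher. The lower bound for Mr1 in DP against preDP moved with the floor, from a log2 ratio of 5.45 at the 35th percentile to 2.58 at the 65th. For DP against DN3 the median of all genes moved from -0.00 to 0.10 with an equal median. Leaving DN1 out of the floor and the choice of probe set, which like the scaling on genes above the floor was added after seeing the data, moved none of 30 ratios beyond the SD. This setting could hardly move them, because all members but H2-Q1 and Mr1 were above the floor on every array.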

Other observations

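Interferon-induced genes, which share inducers with class I genes, were lower in DN2 than in DN1 for the most part. Of 16 measured on that pair of arrays, 9 were at least 2-fold lower in DN2 and 0 higher, with a median log2 ratio of -1.28 against 0.13 for all genes and 8.56% of genes lower. The largest were Irf7, a factor of the interferon response (2324 in DN1 and 242 in DN2), Usp18, a brake on interferon signalling (2348 and 339), Mx1, an antiviral GTPase (703 and 37.1, the latter under the floor), and Ifi204, of the IFI200 family (1300.3 and 255). DN1 also had the highest class II, myeloid and dendritic cell signals, and their part in these values was not tested. From preDP to DP, 1 of 11 was higher and 0 lower, where 11.3% of all genes were higher and 11.7% lower. That gene was Igtp, an immunity-related GTPase induced by interferon gamma, which read 312 (DN1), 415 (DN2), 496 (DN3), 336 (preDP) and 1743 (DP), 5.18-fold higher in DP than in preDP. Isg15, a ubiquitin-like protein, was the only one of 13 at least 2-fold lower in preDP than in DN3. It read 939 in DN3 and 446 in preDP, and 2.42% of all genes were lower.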
